A study of Mus musculus with 10 samples.

Results

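Matrix metalloproteinases and their tissue inhibitors were followed in the forming mouse pinna as a set of 10 genes out of 53465 in the count table. The set holds 6 metalloproteinase genes (*Mmp2*, *Mmp9*, *Mmp11*, *Mmp13*, *Mmp14* and *Mmp16*) and the 4 inhibitor genes (*Timp1*, *Timp2*, *Timp3* and *Timp4*), picked by symbol, and each symbol matched 1 row. Whole pinna prominences, the tissue that forms the outer ear, were collected at stage E14.5: 5 embryos were wild type (WT) and 5 were homozygous for an extra copy of the enhancer mEC1 (*mEC1dup/dup*, 4 copies in all). Both genotypes were kept on a C57BL/6J background. The extra copy was placed on each allele by CRISPR/Cas9 in the germ line, so it was present in all tissues. The embryos came from several litters, and which of them shared a litter was not given. mEC1 drives *Hmx1*, a homeobox transcription factor gene. *Hmx1* had 376 to 526 counts in the WT embryos and 976 to 1356 in the *mEC1dup/dup* embryos, so that every library sat on the side its label gives.

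Matrix metalloproteinases are zinc-dependent proteases that cut collagens, fibronectin, proteoglycans and other matrix molecules outside the cell. Most are secreted as inactive proenzymes, while the membrane types are anchored at the cell surface. TIMP proteins bind the active site of the enzymes and block it, and the balance of both sets how connective tissue is remodelled when cartilage, muscle and skin take shape. TIMP2 also has a second role, since together with the membrane enzyme MMP14 it brings the proenzyme of MMP2 to the cell surface for activation.

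The promoters of 4 members are shown because they stand for the different outcomes seen below. *Mmp11* was the member called changed, *Mmp9* varied most among the clearly expressed members, *Mmp13* was near absent and *Mmp14* was abundant with little difference. Each run covers 250 bases before and 30 bases from the annotated start of the canonical transcript in GRCm39, 5′ to 3′ on the gene's strand. They lie at chr10:75768307-75768586 (minus strand), chr2:164789889-164790168 (plus strand), chr9:7272264-7272543 (plus strand) and chr14:54668628-54668907 (plus strand). Capitals mark matches to 4 motifs searched on both strands: the HMX core CAAGTG, the AP-1 site TGANTCA, the TATA box TATAAA and the GC box GGGCGG.
Mmp11: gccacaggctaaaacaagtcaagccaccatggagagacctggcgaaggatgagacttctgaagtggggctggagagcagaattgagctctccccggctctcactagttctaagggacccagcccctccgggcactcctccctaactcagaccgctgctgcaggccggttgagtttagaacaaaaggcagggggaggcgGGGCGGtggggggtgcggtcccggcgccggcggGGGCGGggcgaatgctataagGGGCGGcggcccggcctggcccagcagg
Mmp9: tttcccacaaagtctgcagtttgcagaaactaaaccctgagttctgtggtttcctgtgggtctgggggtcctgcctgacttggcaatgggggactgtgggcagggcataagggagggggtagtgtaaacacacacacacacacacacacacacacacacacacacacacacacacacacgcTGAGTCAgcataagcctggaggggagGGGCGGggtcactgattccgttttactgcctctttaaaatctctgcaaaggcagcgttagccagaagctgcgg
Mmp13: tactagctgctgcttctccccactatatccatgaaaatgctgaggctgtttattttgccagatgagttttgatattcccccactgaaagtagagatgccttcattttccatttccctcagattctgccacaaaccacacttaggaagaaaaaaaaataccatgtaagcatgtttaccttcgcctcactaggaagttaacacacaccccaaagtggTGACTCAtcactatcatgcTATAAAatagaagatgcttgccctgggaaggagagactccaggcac
Mmp14: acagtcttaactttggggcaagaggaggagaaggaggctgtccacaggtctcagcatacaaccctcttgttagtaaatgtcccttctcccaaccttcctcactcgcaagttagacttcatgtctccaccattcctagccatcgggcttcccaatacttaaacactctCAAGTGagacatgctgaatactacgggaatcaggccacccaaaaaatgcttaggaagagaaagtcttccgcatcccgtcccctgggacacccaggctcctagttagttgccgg

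The *Mmp11* promoter held 3 GC boxes and none of the other motifs, and 15.5% of the 14477 promoters of tested protein-coding genes held 3 or more GC boxes. *Mmp9* and *Mmp13* were the members with an AP-1 site, a motif found in 5.17% of all promoters, and *Mmp13* alone had a TATA box (7.87% of all promoters). The HMX core was found in *Mmp14* and in no other member, against 12.0% of all promoters. A GC box was present in *Mmp2*, *Mmp9*, *Mmp11* and *Timp4*, and in 54.2% of all promoters. These matches describe the letters of the window and show no binding.

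Total counts ranged from 17461544 to 18462073 per embryo. Fold changes came from edgeR's quasi-likelihood test over 16426 genes left by its low-count filter. A gene counted as called when its Benjamini-Hochberg adjusted p did not exceed 0.05 and its average log2 CPM (TMM-normalised counts scaled to library size) was 1 or more. Several measures besides *Hmx1* differed between the genotypes. *Xist*, expressed in female cells, had 2 to 5 counts in the WT embryos, 2096 to 19040 in *mEC1dup/dup* replicates 1 to 4 and 0 in replicate 5, and embryonic globin genes took 18.4% to 23.3% of all globin counts in WT and 32.5% to 35.6% in *mEC1dup/dup*. WT replicate 4 stood apart from the other WT embryos: 10 neuron marker genes, listed after it was seen, summed to 1278 CPM there and to 231 to 508 CPM in the others. The parts of sex, developmental stage and dissection in the results were not tested beyond the fits given beside them. The globin share did not overlap between the genotypes, so a fit with it as a further term can hardly separate it from genotype. In that fit 0 genes were called lower and 0 higher, and *Hmx1* itself had a log2 fold change of 0.34 (± 0.38 SE). In whole tissue, fewer cells of a type and less RNA per cell cannot be told apart.

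Of the 10 members, 9 passed the filter. 1 of the 9 (*Mmp11*) was called higher in *mEC1dup/dup*, where 0.834% of all tested genes were called higher, and 0 were called lower, where 1.81% of all tested genes were. An unadjusted p under 0.05 was found for 3 members (*Mmp2* and *Mmp9* with lower and *Mmp11* with higher means) and for 16.2% of all tested genes, and DESeq2 and limma-voom also called *Mmp11* alone. The groups did not overlap for 1 of the 9 members, against 5.07% of all tested genes. The log2 fold change was negative in 8 of the 9, with a median of -0.09, while it was negative in 51.2% of all tested genes. The members share their libraries, so these counts are a description.

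*Mmp11* (ENSMUSG00000000901, chromosome 10 from 75759055 to 75772330, minus strand, GRCm39) encodes stromelysin-3, a secreted enzyme that is cut to its active form inside the cell by furin and is typical of mesenchyme beside remodelling epithelium. It had 107, 108, 104, 99.2 and 111 CPM in WT replicates 1 to 5. It had 133, 122, 123, 123 and 117 CPM in *mEC1dup/dup* replicates 1 to 5. Every *mEC1dup/dup* embryo lay above every WT embryo, and the lowest of them was replicate 5, the one with no *Xist* counts.

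On average *Mmp11* reached 106 ± 4.52 CPM in WT and 124 ± 6.04 CPM in *mEC1dup/dup* (SD, n = 5 each). Its log2 fold change of 0.22 (± 0.04 SE, edgeR adjusted p = 0.0169) amounts to a level 16.6% higher, and limma-voom gave a 95% interval of 9.18% to 24.4% higher. The change was small, but the embryos of each genotype spread little. With *mEC1dup/dup* replicate 3 left out, the log2 fold change was 0.22 and the adjusted p 0.0564, so the call was lost, and the other 9 fits that each left out one embryo kept it. With *Xist* (log2 CPM) as a further term, *Mmp11* had a log2 fold change of 0.15 (± 0.06 SE, edgeR adjusted p = 0.488), and with the embryonic globin share in its place it was 0.18 (adjusted p = 0.918). The gene *Chchd10* on the other strand shares 4.4% of the exonic bases of *Mmp11*, and it had 13 to 35 counts per embryo against 1790 to 2336 for *Mmp11*.

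**Figure D1:**
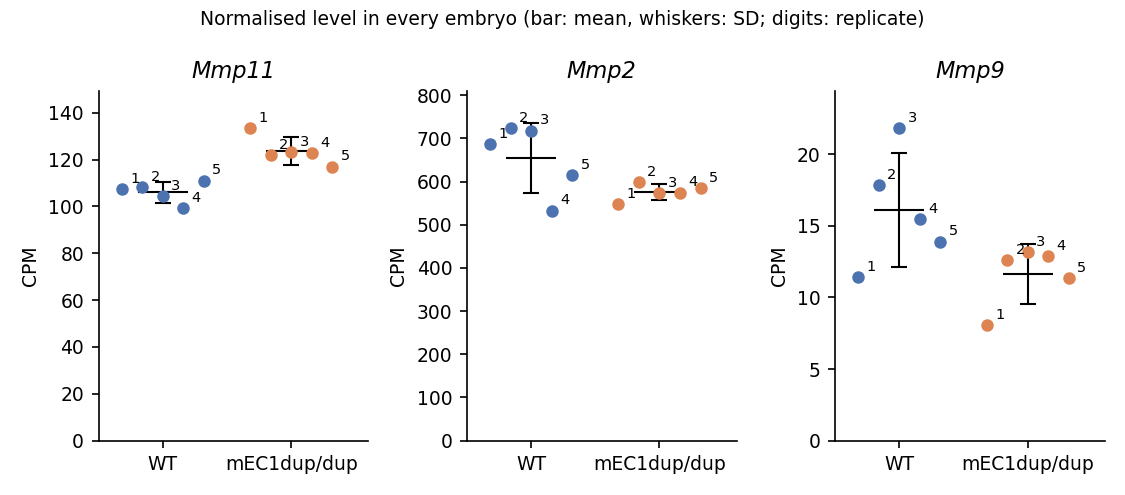
Normalised level (CPM, axis from 0) of *Mmp11*, *Mmp2* and *Mmp9* in each of 5 WT (blue) and 5 *mEC1dup/dup* (orange) embryos, with the mean as a bar and the SD as whiskers. The genotypes do not overlap for *Mmp11*, and overlap for *Mmp2* through WT replicate 4 (533 CPM) and for *Mmp9* through WT replicate 1 (11.4 CPM).

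The 3 protein-coding genes whose log2 CPM followed *Mmp11* most closely over the 10 embryos, after the mean of each genotype was taken away, were *Hes1* (r = 0.93), *Top1* (r = 0.92) and *Marcks* (r = 0.92) among 13149 genes searched. The points share libraries and depth, and these values are a description. None of the 3 was called changed, with log2 fold changes of 0.13, 0.08 and 0.05.

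*Mmp2* (ENSMUSG00000031740, chromosome 8 from 93553902 to 93580049, plus strand) encodes gelatinase A, which cuts denatured collagen and basement membrane collagen and is made mainly by fibroblasts. It had 687, 724, 718, 533 and 616 CPM in WT replicates 1 to 5, and 548, 598, 574, 575 and 585 CPM in *mEC1dup/dup* replicates 1 to 5. WT replicate 4 was the lowest of all 10 embryos, and the 4 other WT embryos lay above every *mEC1dup/dup* embryo. For *Mmp2* the log2 fold change was -0.19 (± 0.07 SE, edgeR adjusted p = 0.212) and did not pass the threshold. The 95% interval of the change from limma-voom ran from -20.6% to -1.54%, before any correction for the number of genes.

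WT replicate 4 decided this outcome. Without it, the log2 fold change of *Mmp2* was -0.26 (± 0.05 SE, edgeR adjusted p = 0.0089) and the gene was called lower, while in the other 9 fits that left out one embryo the gene was not called. The summed level of 6 fibroblast markers was 15307, 13508, 13049, 9289 and 11555 CPM in WT replicates 1 to 5, against 9687 to 11176 CPM in *mEC1dup/dup*. Most of this sum came from the collagen genes *Col1a1* (3650 to 7109 CPM) and *Col3a1* (4183 to 6674 CPM). The embryo with the least *Mmp2* also had the lowest sum, and the 3 embryos with the most *Mmp2* had the 3 highest. Among the *mEC1dup/dup* embryos, in contrast, replicate 1 had the highest sum and the lowest *Mmp2* level. Of these 6 markers, 5 had a negative log2 fold change, and the median over the 6 was -0.28. By edgeR, 1 was called lower (*Lum*) and 0 higher. *Lum*, *Col1a1*, *Col3a1* and *Dcn* had an unadjusted p under 0.05, each with a negative log2 fold change. *Pdgfra* had a positive log2 fold change (0.08, edgeR adjusted p = 0.67). The part of fibroblast content in the *Mmp2* values was not tested. With the embryonic globin share as a further term the direction turned, with a log2 fold change of 0.42 (± 0.28 SE, edgeR adjusted p = 0.898). That fit can hardly separate the globin share from genotype. A non-coding gene on the other strand, *Gm45472*, shares 24.3% of the exonic bases of *Mmp2*, and it had 0 to 5 counts per embryo.

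**Figure D2:**
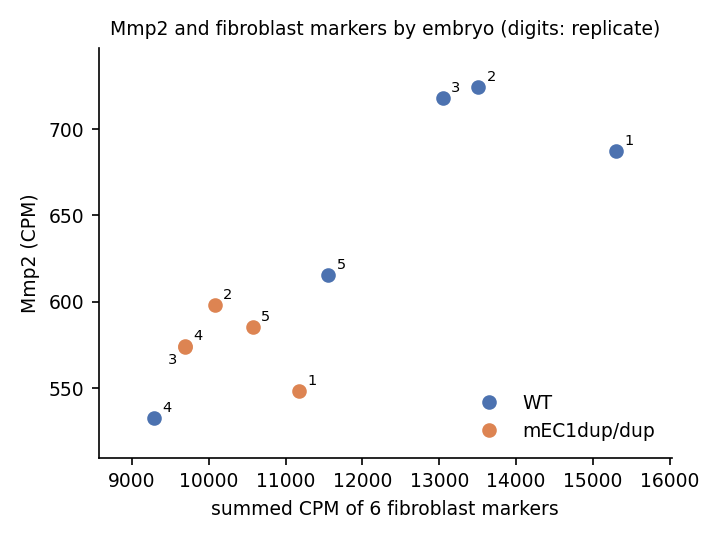
*Mmp2* (CPM, vertical axis) against the summed CPM of 6 fibroblast markers (horizontal axis) in each of the 10 embryos, with digits for replicates and axes that do not start at 0 (*mEC1dup/dup* replicates 3 and 4 coincide). WT replicates 1 to 3 lie at the upper right, and WT replicate 4 lies at the lower left beside the *mEC1dup/dup* embryos.

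*Mmp9* (ENSMUSG00000017737, chromosome 2 from 164780439 to 164797771, plus strand) encodes gelatinase B, which in embryos is best known from osteoclasts and other cells of the myeloid lineage. It had 11.4, 17.8, 21.8, 15.5 and 13.9 CPM in WT replicates 1 to 5, and 8.06, 12.6, 13.1, 12.9 and 11.4 CPM in *mEC1dup/dup* replicates 1 to 5. The WT embryos spread widely, and WT replicate 1 lay within the *mEC1dup/dup* range. The log2 fold change of -0.47 (± 0.17 SE, edgeR adjusted p = 0.179) was more negative than that of *Mmp2* and had a larger standard error. It ranged from -0.57 to -0.34 when each embryo was left out, with no call in any of the 10 fits. The 95% interval of the *Mmp9* change from limma-voom ran from -43.7% to -5.37%, before any correction for the number of genes. With *Xist* as a further term the log2 fold change was -0.47 (± 0.28 SE, edgeR adjusted p = 0.658). With the embryonic globin share it was -0.63 (± 0.80 SE, edgeR adjusted p = 0.935).

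Markers of the cells that make gelatinase B were measured beside it. Of 7 osteoclast markers 3 passed the filter on low counts, and 0 were called. The fusion genes *Dcstamp* and *Ocstamp*, which define mature osteoclasts, were at or below 0.457 CPM in every embryo. The sum of the 7 ranged from 86.6 to 104 CPM in WT and from 79.6 to 92.6 CPM in *mEC1dup/dup*, most of it from *Ctsk*, which fibroblasts also express. The sum of 7 macrophage markers ranged from 161 to 187 CPM in WT and from 151 to 186 CPM in *mEC1dup/dup*, and that of 6 neutrophil markers from 10.3 to 16.6 and from 9.66 to 16.1 CPM. The ranges of these marker sums overlapped. edgeR called 0 of the genes of these 3 lists. An unadjusted p under 0.05, found for 16.2% of all tested genes, was reached by 3 of them. These were *Ctsk* (log2 fold change -0.15), *Mrc1* (-0.22) and *Camp* (-0.98, at 4 to 33 counts per embryo). Over the lists the directions were mixed. Negative log2 fold changes were found in 3 of 3 tested osteoclast markers (median -0.15) and 4 of 7 macrophage markers (median -0.01). Among tested neutrophil markers they were found in 2 of 5 (median 0.03). The part of these cell types in the *Mmp9* values was not tested.

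**Figure D3:**
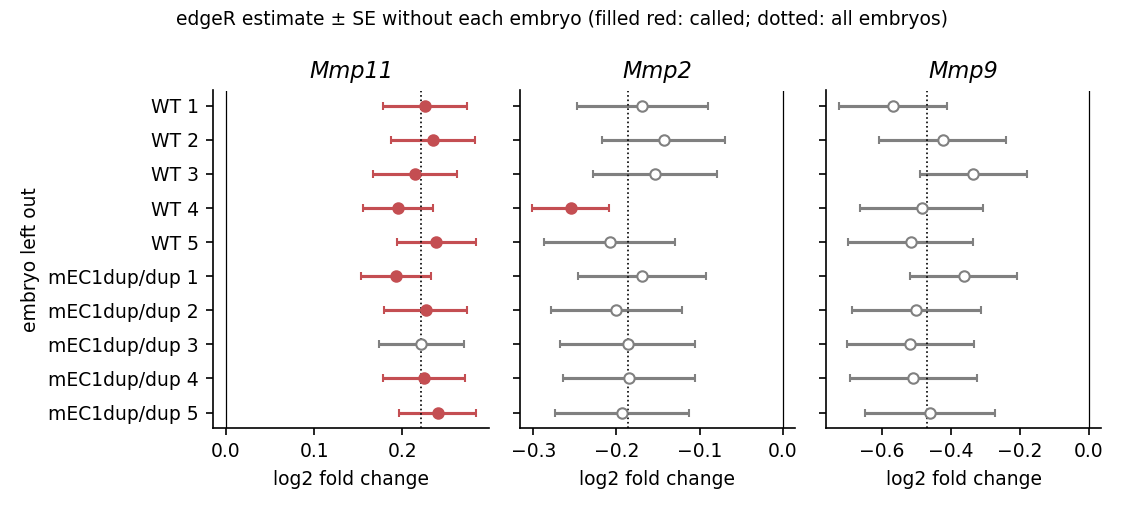
Log2 fold change (*mEC1dup/dup* minus WT, edgeR estimate with its standard error) of *Mmp11*, *Mmp2* and *Mmp9* when each of the 10 embryos was left out in turn. Filled red points were called and open grey points were not: *Mmp11* kept its call in 9 fits, *Mmp2* had one only without WT replicate 4, and *Mmp9* had none.

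Neither membrane-type member was called. *Mmp14* (ENSMUSG00000000957, chromosome 14 from 54668878 to 54682821, plus strand) encodes the membrane enzyme that activates MMP2 and itself cuts fibrillar collagen. It had 588, 587, 555, 471 and 545 CPM in WT replicates 1 to 5, and 515, 556, 539, 546 and 559 CPM in *mEC1dup/dup* replicates 1 to 5. As for *Mmp2*, WT replicate 4 was the lowest of all embryos. For *Mmp14* the log2 fold change was -0.02 (± 0.05 SE, edgeR adjusted p = 0.919), with a 95% interval from limma-voom of -8.52% to 7.51%. It was -0.069 without WT replicate 4. The sign turned without WT replicate 1 (0.0094), WT replicate 2 (0.014) or *mEC1dup/dup* replicate 1 (0.0022). *Mmp16* (ENSMUSG00000028226, chromosome 4 from 17852844 to 18125390, plus strand), a further membrane-type enzyme, averaged 58.3 ± 2.11 CPM in WT and 56.4 ± 3.92 CPM in *mEC1dup/dup* (SD, n = 5 each). Its interval reached from -10.6% to 4.42%. For both genes a difference of the size seen in *Mmp11* lies outside the interval, which was not corrected for the number of genes and holds for the fit with genotype alone. With the embryonic globin share as a further term *Mmp14* turned to 0.43 (± 0.21 SE, edgeR adjusted p = 0.898), and with *Xist* it was 0.0094 and *Mmp16* turned to 0.032.

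**Figure D4:**
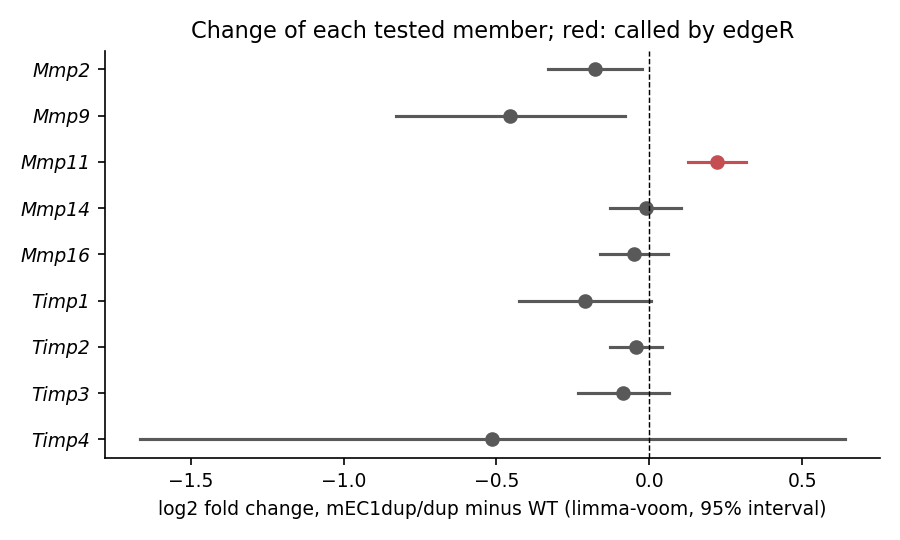
Log2 fold change (*mEC1dup/dup* minus WT) of the 9 tested members with its 95% interval from limma-voom, in red where edgeR called the gene. The intervals, not corrected for the number of genes, lie to the right of 0 for *Mmp11* and to the left of 0 for *Mmp2* and *Mmp9*. *Mmp14*, *Mmp16* and *Timp2* have narrow intervals around 0, and *Timp4* has the widest interval.

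None of the 4 inhibitors was called by edgeR, DESeq2 or limma-voom, and 0 had an unadjusted p under 0.05. *Timp2* (ENSMUSG00000017466, chromosome 11 from 118191887 to 118246566, minus strand) had 449, 497, 467, 429 and 444 CPM in WT replicates 1 to 5, and 460, 437, 443, 430 and 445 CPM in *mEC1dup/dup* replicates 1 to 5. The embryos were intermixed. Its log2 fold change of -0.04 (± 0.04 SE, edgeR adjusted p = 0.659) came with a 95% interval of -8.50% to 2.98%, and with the embryonic globin share as a further term it turned to 0.046 (± 0.19 SE). For *Timp2* the value was -0.0070 without WT replicate 2 and -0.069 without WT replicate 4. *Timp3* (ENSMUSG00000020044, chromosome 10 from 86136236 to 86185371, plus strand) encodes the inhibitor that stays bound to the matrix and also blocks some ADAM and ADAMTS proteases.

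*Timp3* had 220, 236, 235, 182 and 222 CPM in WT replicates 1 to 5, and 221, 213, 213, 192 and 191 CPM in *mEC1dup/dup* replicates 1 to 5. WT replicate 4 was again the lowest embryo. Between genotypes the log2 fold change was -0.09 (± 0.07 SE, edgeR adjusted p = 0.576), with -0.15 without WT replicate 4 (adjusted p = 0.103) and -0.055 without WT replicate 2 (adjusted p = 0.784). It was -0.21 with *Xist* as a further term (± 0.10 SE, edgeR adjusted p = 0.569) and turned to 0.025 with the embryonic globin share (± 0.31 SE). *Timp3* lies inside the gene *Syn3*, which runs on the other strand and shares 21.3% of its exonic bases, but *Syn3* had 38 to 59 counts per embryo against 3291 to 4268 for *Timp3*.

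*Timp1* (ENSMUSG00000001131, X chromosome from 20736316 to 20740976, plus strand), which encodes an inducible secreted inhibitor, lies inside *Syn1* on the other strand and shares no exonic base with it. It had 9.36, 12.0, 9.82, 10.4 and 9.53 CPM in WT replicates 1 to 5, and 9.49, 9.42, 8.04, 9.44 and 7.74 CPM in *mEC1dup/dup* replicates 1 to 5. The groups overlapped, and the log2 fold change was -0.21 (± 0.10 SE, edgeR adjusted p = 0.332). *Timp1* is the X-linked member, and *Xist* differed between the genotypes. The *mEC1dup/dup* embryo without *Xist* counts had the lowest *Timp1* level, 7.74 CPM, and with *Xist* as a further term the log2 fold change of *Timp1* was -0.36 (adjusted p = 0.523). With the embryonic globin share it was -0.52 (± 0.46 SE, edgeR adjusted p = 0.898).

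*Timp4* and *Mmp13* were near the limit of detection. *Timp4* (ENSMUSG00000030317, chromosome 6 from 115187773 to 115229336, minus strand), the inhibitor best known from heart and brain, had counts of 4, 8, 14, 15 and 28 over WT replicates 1 to 5. In *mEC1dup/dup* replicates 1 to 5 they were 18, 13, 3, 6 and 8, within the WT range but for 1 embryo. The log2 fold change was -0.53 (± 0.51 SE, edgeR adjusted p = 0.669), and its 95% interval from -68.5% to 55.6% leaves room for a sizeable difference in either direction. Leaving out single embryos moved the log2 fold change, to -0.11 without WT replicate 5 and -0.90 without *mEC1dup/dup* replicate 1, and with the embryonic globin share as a further term it was -4.19 (± 2.11 SE, edgeR adjusted p = 0.898). *Timp4* shares 14.7% of its exonic bases with *Syn2* on the other strand, which had 69 to 269 counts per embryo, and reads of either strand cannot be told apart in these libraries. *Mmp13* (ENSMUSG00000050578, chromosome 9 from 7272514 to 7283331, plus strand), the collagenase of hypertrophic cartilage and bone, had 0 to 2 counts in every embryo, with 5 counts over WT and 7 over *mEC1dup/dup*, and was not tested.

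Markers of hypertrophic cartilage and bone ranged from near absent to clearly expressed. *Bglap* had at most 0.173 CPM and *Col10a1* at most 1.66 CPM in any embryo, but *Ibsp* had 3.20 to 52.1 CPM, *Alpl* 12.5 to 31.2 CPM, *Sp7* up to 15.9 CPM and *Spp1* up to 7.06 CPM. For comparison, *Col2a1*, the collagen of cartilage as such, had 1369 to 5207 CPM. 0 of 6 markers of osteoblasts and hypertrophic chondrocytes were called by edgeR. Their sum was 37.1 to 101 CPM in WT and 25.4 to 53.7 CPM in *mEC1dup/dup*. Of the 5 tested, 4 had a negative log2 fold change, and 1 of these (*Ibsp*, -1.28) had an unadjusted p under 0.05. *Col10a1* went the other way, with 0.99 (± 0.47 SE, edgeR adjusted p = 0.323) at 3 to 29 counts per embryo.

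Levels were compared between members per length, as TPM (counts per kilobase of annotated exon, scaled to the same sum in each embryo). In WT the order by mean was *Mmp2* (863 ± 107 TPM, SD, n = 5), *Timp2* (476 ± 26.2), *Mmp14* (414 ± 35.6), *Mmp11* (140 ± 5.88), *Timp3* (125 ± 12.5), *Timp1* (24.3 ± 2.41), *Mmp9* (20.2 ± 5.01), *Mmp16* (17.9 ± 0.66), *Timp4* (0.46 ± 0.30) and *Mmp13* (0.10 ± 0.10). The single WT embryos overlapped between *Mmp11* and *Timp3*, between *Timp1* and *Mmp9*, between *Mmp9* and *Mmp16*, and between *Timp4* and *Mmp13*. In *mEC1dup/dup* the embryos no longer overlapped between *Mmp11* (155 to 179 TPM) and *Timp3* (109 to 128 TPM), or between *Timp1* and *Mmp9*. The activation partners of MMP2 were thus the most abundant members in both genotypes: *Mmp2*, *Timp2* and *Mmp14*.

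**Figure D5:**
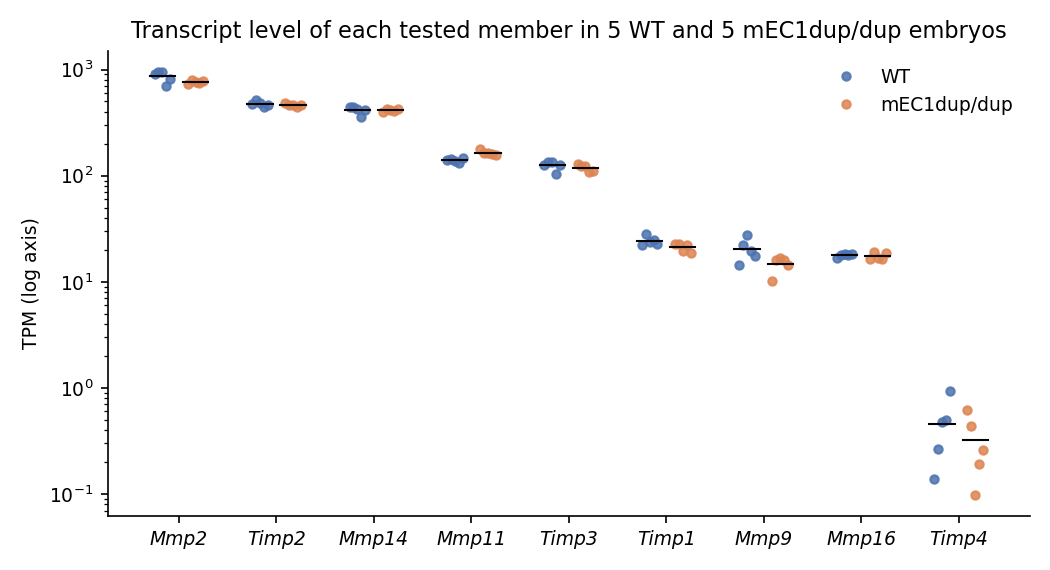
Level per length (TPM, log axis) of the 9 tested members in each WT (blue) and *mEC1dup/dup* (orange) embryo, with the mean as a black bar. *Mmp2*, *Timp2* and *Mmp14* lie between 355 and 950 TPM in every embryo and *Timp4* below 1 TPM, and *Mmp13*, with 0 to 2 counts, is not drawn.

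Summed over the families, the metalloproteinases reached 1456 ± 144 TPM (SD, n = 5) in WT and 1375 ± 35.5 TPM (SD, n = 5) in *mEC1dup/dup*, and the inhibitors 626 ± 38.2 and 606 ± 22.0 TPM. The ratio of inhibitor to enzyme transcripts was 0.432 ± 0.025 in WT and 0.441 ± 0.022 in *mEC1dup/dup* (SD, n = 5 each), a difference smaller than either SD. *Mmp2* and *Mmp14* together made up 86.3% to 88.6% of the enzyme sum in WT and 84.6% to 86.4% in *mEC1dup/dup*. The ratio of *Mmp2* to *Timp2* in CPM was 1.24 to 1.54 in WT and 1.19 to 1.37 in *mEC1dup/dup*. That of *Mmp14* to *Timp2* averaged 1.20 and 1.23. These sums and ratios describe the members and were not tested.

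The rest of the family showed no call. Of 17 other metalloproteinase genes, 7 passed the filter, 0 were called in either direction, and 6 (*Mmp1a*, *Mmp1b*, *Mmp7*, *Mmp10*, *Mmp12* and *Mmp20*) had no count in any embryo. At an unadjusted p under 0.05 the number was 0, and DESeq2 and limma-voom also called 0. The most abundant was the membrane-type *Mmp15* (108 ± 15.9 CPM in WT and 99.0 ± 9.73 CPM in *mEC1dup/dup*, SD, n = 5 each). *Mmp24*, a membrane-type enzyme of neurons, had 294 counts in WT replicate 4 and 10 to 94 in the other 9 embryos, alongside the neuron markers that were high in that embryo.

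Genes that activate, bind or restrain the enzymes had no call by edgeR. Of 16 such genes 15 were tested and 0 were called by edgeR or limma-voom, with a median log2 fold change of -0.06, and 2 (*Cd44* and *Lrp1*) had an unadjusted p under 0.05. *Furin*, whose product activates stromelysin-3, had 155 to 181 CPM in WT and 167 to 194 CPM in *mEC1dup/dup*. *Reck*, a membrane-anchored inhibitor of metalloproteinases, had 154 ± 16.0 and 146 ± 2.61 CPM (SD, n = 5 each). *Cd44*, a hyaluronan receptor that docks gelatinase B at the cell surface, came closest to a call, with 110 ± 11.5 CPM in WT and 84.6 ± 12.6 CPM in *mEC1dup/dup* and a log2 fold change of -0.38 (± 0.10 SE, edgeR adjusted p = 0.0536). It was singled out after its values were seen, and DESeq2 called it. Without WT replicate 4, *Cd44* and *Lrp1* were both called lower, and without *mEC1dup/dup* replicate 1 *Cd44* was.

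Among 27 ADAM and ADAMTS proteases, relatives of which TIMP3 can block some, 26 were tested, 2 were called lower and 0 higher, with a median log2 fold change of -0.04. At an unadjusted p under 0.05 there were 10, of which 4 had lower and 6 higher means in *mEC1dup/dup* (*Adamts1*, *Adamts6*, *Adamts7*, *Adamts9*, *Adamts17* and *Adamts18*). *Adamts14*, which trims the amino end of procollagens, had 31.6, 32.8, 30.2, 25.5 and 33.3 CPM in WT replicates 1 to 5, and 21.7, 21.9, 21.1, 21.1 and 24.5 CPM in *mEC1dup/dup* replicates 1 to 5. The genotypes did not overlap. Its log2 fold change was -0.48 (± 0.08 SE, edgeR adjusted p = 0.00804), and all 10 fits that left out one embryo called it.

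*Adamts12*, a protease of cartilage and other connective tissue, had 102 ± 8.78 CPM in WT and 81.3 ± 7.46 CPM in *mEC1dup/dup* (SD, n = 5 each). The log2 fold change was -0.33 (± 0.07 SE, edgeR adjusted p = 0.0295), and the call held in 3 of the 10 fits that left out one embryo, those without WT replicate 4 and *mEC1dup/dup* replicates 1 and 5. Both genes lost the call once *Xist* or the embryonic globin share entered the fit.

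Of 16 matrix molecules that these enzymes cut, all were tested, 14 had a negative log2 fold change, the median over the 16 was -0.26, and 1 was called lower (*Bgn*) and 0 higher, while 10 had an unadjusted p under 0.05. *Bgn* encodes biglycan, a small proteoglycan, and is X-linked. It had 681 ± 88.1 CPM in WT and 549 ± 14.0 CPM in *mEC1dup/dup* (SD, n = 5 each), and its log2 fold change was -0.31 (± 0.07 SE, edgeR adjusted p = 0.0413). The call was lost in 8 of the 10 fits that left out one embryo, all but those without WT replicates 4 and 5, and also when *Xist* or the embryonic globin share entered the fit. Without WT replicate 4, which had the lowest *Col1a1* level of all embryos (3650 CPM against 4141 to 7109 CPM), 8 of the 16 were called lower.

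Fibroblast, cartilage, muscle, epidermal and endothelial markers were all present, as the labelled tissue would hold. 5 of 6 epidermal markers and 3 of 6 skeletal muscle markers were called lower in *mEC1dup/dup*, against 1.81% of all tested genes. The log2 fold change was negative in all 6 epidermal markers and in 5 of the 6 muscle markers. It was positive for the muscle gene *Myog* (0.12, edgeR adjusted p = 0.745). Most of the muscle sum came from *Myh3* (means of 581 CPM in WT and 380 in *mEC1dup/dup*) and *Acta1* (579 and 314). The epidermal sum was 783 to 1555 CPM in WT and 543 to 751 CPM in *mEC1dup/dup*, and the muscle sum 1317 to 2022 and 767 to 1233 CPM, and neither overlapped between the genotypes. The 5 endothelial markers (407 to 506 and 423 to 477 CPM) and the 5 cartilage markers (4553 to 7598 and 2050 to 6039 CPM) had 0 calls by edgeR. *Pecam1* (log2 fold change -0.11), *Acan* (-0.69) and *Matn1* (-0.67) had an unadjusted p under 0.05. The log2 fold change was negative in 3 of the 5 endothelial and 4 of the 5 cartilage markers. It was positive for the cartilage gene *Sox9* (0.19, edgeR adjusted p = 0.572). *mEC1dup/dup* replicate 1, with the lowest cartilage sum, had the highest *Mmp11* and the lowest *Mmp9* level of all embryos. The part of these cell types in the members' values was not tested.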

How the data were processed

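RNA-seq libraries of whole pinna prominences from 5 WT and 5 *mEC1dup/dup* embryos were analysed. The authors used fastp for trimming, STAR for alignment (GRCm39) and featureCounts for counting, and the deposited values are raw counts per gene. The sources name different library kits, neither of which records strand. The strand setting and annotation release are not given in the sources used here. Groups came from the labels.

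Counts were tested with edgeR 4.0.16 in R 4.3.3 (TMM scaling, its default filter on low counts, genotype as the term, quasi-likelihood test, two-sided, Benjamini-Hochberg adjustment over 16426 genes). Intervals came from limma 3.58.1. DESeq2 1.42.0, other scalings and filters, covariates, a replicate block and leaving out each embryo were alternatives. The code was tested on simulated data. Exon lengths for TPM came from GENCODE (GRCm39) for 49355 of the 53465 genes. The p-values set the difference between genotypes against the spread between these embryos, taken as independent. They do not account for shared litters, nor, outside the fits with those terms, for *Xist* or the globin share.

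All members were named, with each called gene of the lists and the 3 genes most like a called member. Members and lists were chosen with earlier results of these data known, and the neuron list after the libraries were compared.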

Additional observations from a re-analysis of the deposited data

Results flagged for a closer look

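*Adamts14* in *mEC1dup/dup* replicate 5 (24.5 CPM) lay apart from the 4 other *mEC1dup/dup* embryos (21.1 to 21.9 CPM), with a gap to the nearest of them of 0.77 of the group's range. Dixon's critical value for 5 samples is 0.71, and chance passes it in about 1 of 20 groups.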

How the results depend on the processing

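Directions and calls mostly held under the other scalings, filters and tests, and the exceptions follow. With *Xist* (log2 CPM) as a further term, and also with the embryonic globin share, 0 members, 0 ADAM and ADAMTS proteases and 0 matrix substrates were called. Over all genes, these fits called 1 lower and 2 higher, and 0 and 0. Both covariates move with genotype, and the standard errors were larger in these fits (0.06 and 0.19 against 0.04 for *Mmp11*). The log2 fold change was 0.15 (*Xist*) and 0.18 (globin) for *Mmp11*, 0.0094 and 0.43 for *Mmp14*, and 0.032 (*Xist*) for *Mmp16*. With the globin share it was 0.42 for *Mmp2*, 0.046 for *Timp2*, 0.025 for *Timp3* and 0.34 for *Hmx1*. The sign turned from negative to positive for *Mmp14* with either term, for *Mmp16* with *Xist*, and for *Mmp2*, *Timp2* and *Timp3* with the globin share. The cause was not tested.

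At an adjusted p of at most 0.01, 0 members were called higher. *Cd44* was the 1 activation gene called lower under upper quartile scaling, total counts alone, DESeq2, no filter, a minimum of 10 counts in every embryo and the replicate block. DESeq2 and no filter called 2 matrix substrates lower. DESeq2 called 510 genes lower and 321 higher over all genes, against 297 and 137 by edgeR.

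Leaving out each embryo gave 0 to 1 members called lower, 0 to 1 higher, 0 to 2 activation genes, 1 to 3 ADAM and ADAMTS proteases and 0 to 8 matrix substrates called lower. The log2 fold change ranged from -0.26 to -0.14 for *Mmp2*, from 0.19 to 0.24 for *Mmp11*, from -0.069 to 0.014 for *Mmp14*, from -0.076 (without *mEC1dup/dup* replicate 5) to -0.023 (without *mEC1dup/dup* replicate 1) for *Mmp16*, from -0.069 to -0.0070 for *Timp2*, from -0.15 to -0.055 for *Timp3* and from -0.90 to -0.11 for *Timp4*. Over all genes, 120 to 476 were called lower and 34 to 179 higher, the fewest without *mEC1dup/dup* replicate 3 and the most without WT replicate 4. Without exon length, the ratio of inhibitor to enzyme counts was 0.497 in WT and 0.503 in *mEC1dup/dup*.

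With the replicate block, 1 member was called lower (*Mmp9*, log2 fold change -0.46, adjusted p = 0.0188), 6 matrix substrates and 3 ADAM and ADAMTS proteases (*Adam33* besides *Adamts12* and *Adamts14*) were called lower, and 487 genes were called lower and 200 higher over all genes. The labels do not say that the numbers pair embryos. Same-numbered embryos correlated from -0.06 to 0.34, and 2 of the 5 pairs correlated best with their own number. *Mmp13* had 0 to 2 counts per embryo and did not pass the filter on low counts. *Timp4* had 3 to 28 counts and also spread widely between embryos, with a coefficient of variation of 65.4% in WT and 64.3% in *mEC1dup/dup*.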
